A study of Homo sapiens with 12 samples.

Results

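Solute carriers are the membrane proteins that move amino acids, sugars, ions, metals, vitamins and nucleosides across the plasma membrane and the membranes of organelles. Their genes were followed here in HaCaT, a keratinocyte line from human epidermis that grows without limit in culture. A gene counted as a member when its deposited symbol was SLC, a family number, A and a member number, and when its mean over all 12 libraries reached 2 CPM, the unit of counts scaled to the same library total. Of 188 genes with such a symbol, 171 reached that level, among 16271 genes in the table. They carry 170 symbols, since SLC25A10 stands under 2 gene IDs, and they belong to 42 families, which were grouped into 12 classes by substrate. The members with the lowest means were SLC7A8 at 2.12, SLC34A1 at 2.28 and SLC27A6 at 2.58 CPM. The genes just below the limit were SLC25A45 at 1.88, SLC6A17 at 1.33 and SLC39A2 at 1.09 CPM.

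Total RNA was sequenced from 4 groups of 3 libraries each. These were HaCaT cells with a knockout of VDR, the nuclear receptor for vitamin D, given the hormone form 1,25(OH)2D3 for 8 h, untreated knockout cells, wild type HaCaT cells given the hormone for the same time, and untreated wild type cells. The labels describe the treated replicates as wells of a culture plate, and give no hormone dose, no vehicle and no number of knockout clones. P-values therefore measure the spread between cultures of these lines, and a difference between the genotypes cannot be told apart from a difference between cell clones.

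Carriers divide by how they are driven. Uniporters let a substrate run down its own gradient, symporters pull a substrate in with sodium or protons, and antiporters exchange a substrate for another. The large neutral amino acid carrier SLC7A5 works only when paired with the heavy chain SLC3A2, and the lactate carriers SLC16A1 and SLC16A3 need the chaperone basigin (BSG). Family 30 proteins move zinc out of the cytosol and family 39 proteins move it in, family 25 proteins sit mostly in the mitochondrial inner membrane, and family 35 proteins feed sugar nucleotides to the Golgi apparatus. Vitamin D biology is best known for calcium and phosphate transport in gut, kidney and bone. Epidermal keratinocytes make and answer the hormone, whose best known target is CYP24A1, the enzyme that degrades it.

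Libraries held between 11485031 and 15992792 counts. CYP24A1 averaged 12.2 ± 0.232 CPM in treated and 16.9 ± 4.83 CPM in untreated knockout cells, and 1676 ± 61.1 CPM in treated and 47.98 ± 2.88 CPM in untreated wild type cells (SD, n = 3 each). VDR transcripts were still counted in the knockout, at 82.8 ± 3.02 CPM treated and 77.6 ± 4.07 CPM untreated, against 71.0 ± 3.62 and 103 ± 3.81 CPM in wild type cells, so the transcript level does not check the genotype label. All 14 keratinocyte markers were in the table. Their summed level was 2010 to 2230 CPM in treated and 2370 to 2520 CPM in untreated knockout cells, against 5570 to 5760 CPM in treated and 5180 to 6440 CPM in untreated wild type cells. Markers of melanocytes (2 of 6 in the table), fibroblasts (3 of 6), endothelial cells (1 of 5) and leukocytes (1 of 6) summed to at most 21.5 CPM per list in any library. Wild type untreated replicate 3 stood apart from the other untreated wild type libraries, at -32.5 on a first principal component where they lay at -54.3 and -55.7. This component held 75% of the variance and parted the genotypes, with knockout libraries at 46.5 to 57.5. The library thus lay nearer the knockout libraries than any other wild type library did. Counts over all members that rest on it are given with and without it, and counts by class or list only with it.

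The 171 members took 0.941 to 0.952% of all counts in treated and 0.892 to 0.961% in untreated knockout cells, and 1.16 to 1.23% in treated and 0.977 to 1.11% in untreated wild type cells. The share was lower in every knockout library than in any wild type library. Mean levels over the 12 libraries ran from 2.12 CPM to 1027 CPM, with a median of 37.2 CPM, and 24 members reached 100 CPM. Corrected for the length of the gene's exons, the median was 6.76 CPM per kb. On that scale SLC7A5 was highest at 222 CPM per kb, followed by SLC3A2 at 81.1, the purine nucleobase carrier SLC43A3 at 62.0, the mitochondrial ADP/ATP carrier SLC25A5 at 54.6 and the glutamine carrier SLC1A5 at 54.0 CPM per kb. The dicarboxylate carrier SLC25A10 had 58.0 and 46.1 CPM per kb under its 2 gene IDs, of which 1 has the same counts as MRPL12 in every library. The mitochondrial oxoglutarate and malate carrier SLC25A11 followed at 43, the sodium-coupled amino acid carrier SLC38A2 at 39.9, the mitochondrial aspartate and glutamate carrier SLC25A13 at 35.8 and the phosphate carrier SLC20A1 at 33.6 CPM per kb. Without SLC7A5 the members' scaled levels summed to 8670 ± 67.1 CPM in treated and 8457 ± 150 CPM in untreated knockout cells, and to 10460 ± 155 CPM in treated and 9680 ± 441 CPM in untreated wild type cells (SD, n = 3 each).

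In wild type cells every class held members called with hormone, each changed by less than 2-fold. In the class of nucleotide sugars and acetyl-CoA the only call was SLC33A1, which did not hold under several alternatives. With 1,25(OH)2D3, 42 of the 171 members (24.6%) rose and 19 (11.1%) fell. Over all 14676 genes tested the shares were 11.5% and 13%, and the median log2 fold change was 0.05 for the members and -0.005 for all genes. Genes were called at an adjusted p below 0.05 in edgeR's quasi-likelihood test with Benjamini-Hochberg adjustment over all genes tested, and each adjusted p below comes from that test. Leaving out untreated wild type replicate 3 gave 35 members higher and 16 lower. The counts were 30 and 10 when treated replicate 1 was left out, and 28 and 12 when treated replicate 3 was. In bulk RNA, a level per cell and the share of cells that express a gene cannot be told apart. Fold changes are given on the log2 scale as treated over untreated, with the standard error (SE).

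**Figure D1:**
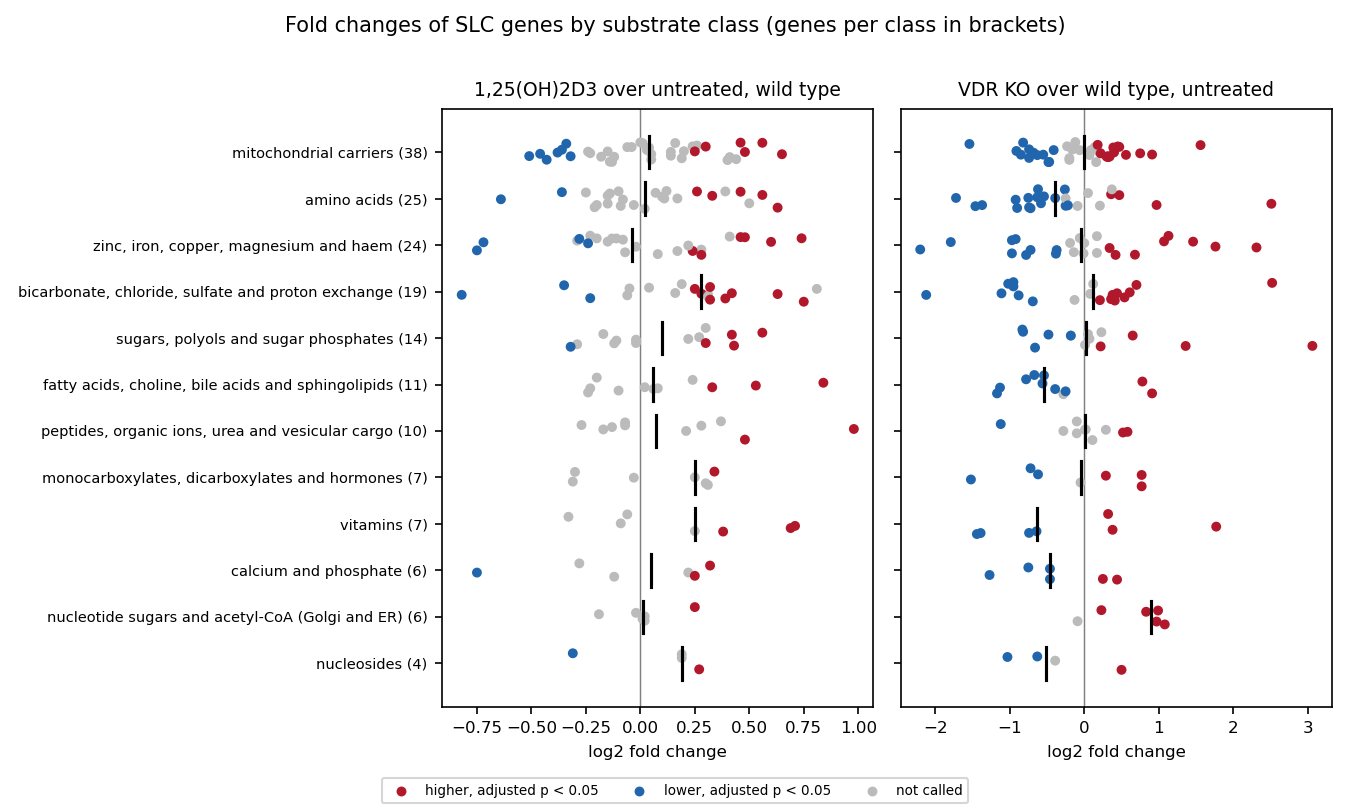
Log2 fold change of each member by substrate class, for treated over untreated wild type cells (left) and knockout over wild type cells without hormone (right). Each point is a gene, coloured where the adjusted p was below 0.05, and the black bar is the class median. The left panel stays between -0.82 and 0.98, the right panel runs from -2.20 to 3.06.

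Vitamin carriers included some of the larger rises. Of 7 members, 3 rose (42.9%) and 0 fell, against 11.5% and 13% of all genes. SLC46A1, the proton-coupled folate carrier, had 31.8, 24.4 and 29.6 CPM in treated wild type libraries, against 16.3, 19.1 and 17.1 CPM in untreated ones. The groups did not overlap, and the log2 fold change was 0.71 ± 0.12 (SE; edgeR adjusted p = 0.000672). The riboflavin carrier SLC52A2 had 66.1, 66.6 and 76.1 CPM in treated libraries, against 47.7, 50.3 and 31.4 CPM in untreated ones, a log2 fold change of 0.69 ± 0.14 (SE; edgeR adjusted p = 0.00301). The lowest of the untreated values was replicate 3. The biotin and pantothenate carrier SLC5A6 rose by 0.38 on the log2 scale (edgeR adjusted p = 0.0169). The other riboflavin carrier, SLC52A3, averaged 3.24 CPM treated and 4.07 CPM untreated, the reduced folate carrier SLC19A1 averaged 121 and 129 CPM, and neither passed the test.

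Carriers of bicarbonate, chloride, sulfate and protons had 8 members of 19 higher (42.1%) and 3 lower (15.8%). The shares over all genes were 11.5% and 13%, and the class median was 0.28. Leaving out treated replicate 3 gave 4 members higher and 1 lower. The sulfate and anion exchanger SLC26A11 had 10.5, 10.9 and 10.1 CPM in treated libraries, against 5.43, 6.95 and 6.34 CPM in untreated ones. No treated value came within the untreated range, and the log2 fold change was 0.75 ± 0.12 (SE; edgeR adjusted p = 0.000503). The chloride and bicarbonate exchanger SLC4A3 had 57.6, 54.3 and 52.2 CPM treated, against 38.2, 44.3 and 23.8 CPM untreated (0.63 ± 0.17, SE; edgeR adjusted p = 0.0189). Its call was lost without treated replicate 1 (edgeR adjusted p = 0.0633) and without treated replicate 2 (edgeR adjusted p = 0.0506). The related SLC4A2 had the largest levels of the class, at 247, 265 and 269 CPM treated against 167, 194 and 86.3 CPM untreated. Its groups did not overlap either, and it was not called (edgeR adjusted p = 0.116). SLC4A11, SLC12A2 (the sodium, potassium and chloride importer), SLC26A6, SLC12A9, SLC4A7 and SLC9A7 were the other members that rose, by 0.25 to 0.42.

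The endosomal sodium and proton exchanger SLC9A9 moved the other way and had the largest fall of all members. It had 2.76, 3.28 and 2.25 CPM in treated libraries, against 3.88, 4.39 and 6.34 CPM in untreated ones. The ranges stayed apart, and the log2 fold change was -0.82 ± 0.20 (SE; edgeR adjusted p = 0.00837). Without treated replicate 3 the edgeR adjusted p was 0.0515. Of the same class, the Golgi exchanger SLC9A8 fell by 0.35 and the chloride-coupled family member SLC12A8 by 0.23 on the log2 scale.

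**Figure D2:**
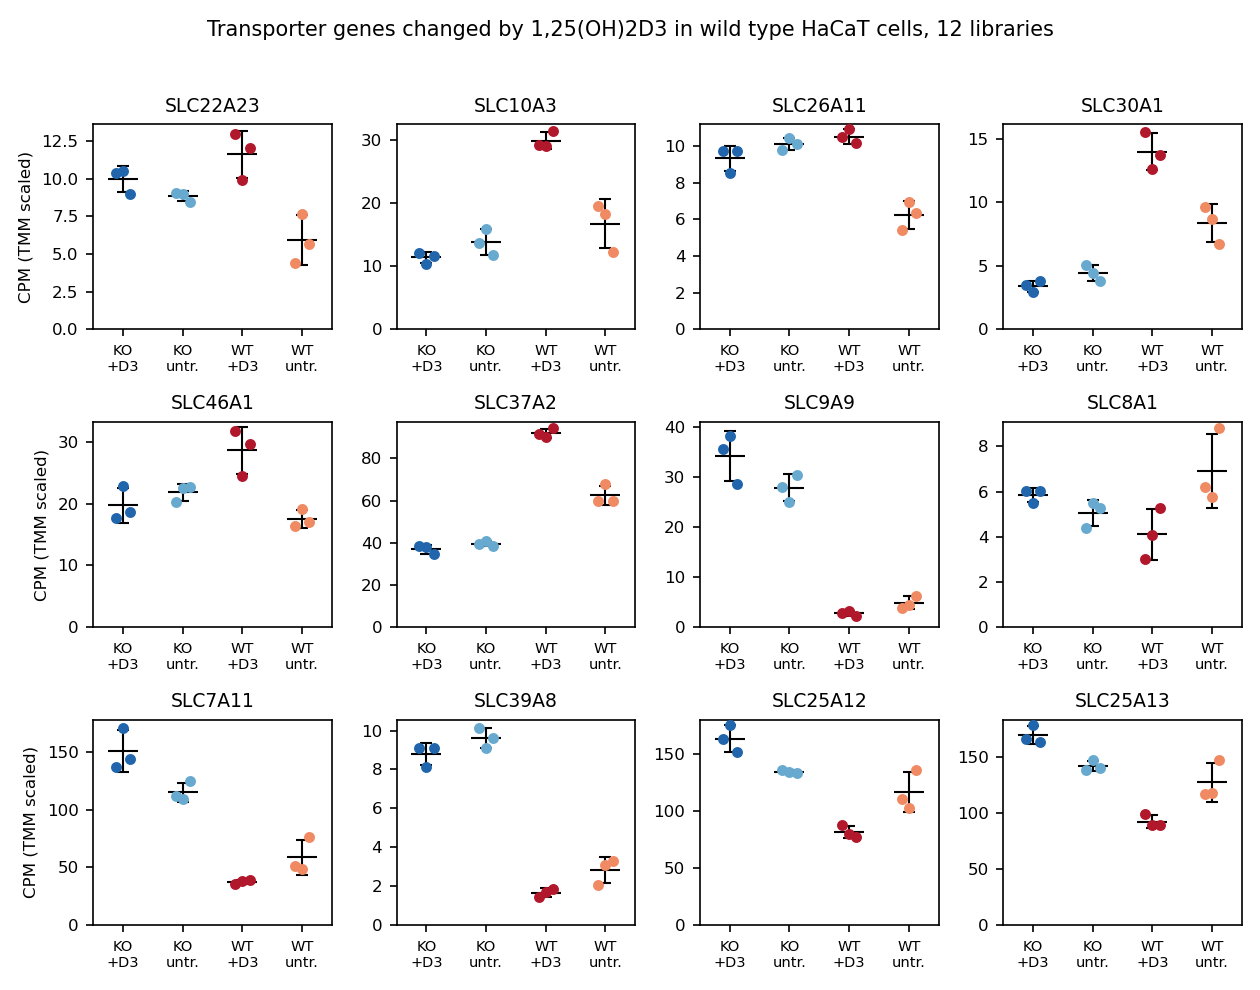
CPM, scaled by TMM, of 12 members in each library, with panels starting at 0. Points are libraries, the long bar is the group mean and the whiskers are ± 1 SD (n = 3). SLC37A2 lay between 89.9 and 94.2 CPM in treated and between 59.8 and 67.6 CPM in untreated wild type cells, while SLC9A9 was higher in all 6 knockout libraries than in any wild type library.

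Among calcium and phosphate carriers, 2 of 6 rose (33.3%) and 1 fell (16.7%), against 11.5% and 13% of all genes. SLC20A1, which takes up phosphate with sodium, had 273, 281 and 289 CPM in treated libraries, against 239, 234 and 202 CPM in untreated ones (0.32 ± 0.08, SE; edgeR adjusted p = 0.00962). Its relative SLC20A2 averaged 69.1 ± 2.34 CPM treated and 75.2 ± 5.11 CPM untreated (SD, n = 3 each), which did not pass the test (edgeR adjusted p = 0.227). SLC24A6, now named SLC8B1 and known as the sodium and calcium exchanger of mitochondria, rose by 0.25 on the log2 scale (edgeR adjusted p = 0.0254). The plasma membrane sodium and calcium exchanger SLC8A1 had 3.00, 4.06 and 5.26 CPM treated, against 6.21, 5.76 and 8.79 CPM untreated. It fell with a log2 fold change of -0.75 ± 0.20 (SE; edgeR adjusted p = 0.0126), a call that was lost without untreated replicate 3 (edgeR adjusted p = 0.0637) and without treated replicate 1 (edgeR adjusted p = 0.068). The kidney phosphate carrier SLC34A1 stayed near the limit of inclusion, at 3.02 CPM treated and 3.66 CPM untreated.

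The sugar phosphate exchanger SLC37A2, whose gene is a known vitamin D target in other cells, had the smallest adjusted p of the members. It had 91.3, 89.9 and 94.2 CPM in treated libraries, against 60.0, 67.6 and 59.8 CPM in untreated ones. The log2 fold change was 0.56 ± 0.07 (SE; edgeR adjusted p = 9.2e-05), and the libraries were tight in both groups. Of the 14 carriers of sugars, polyols and sugar phosphates, 4 rose (28.6%) and 1 fell (7.14%), against 11.5% and 13% of all genes. The others that rose were SLC37A4, which brings glucose-6-phosphate into the endoplasmic reticulum, by 0.43, the sugar carrier SLC50A1 by 0.42, whose counts equal those of another gene ID, and the intracellular glucose carrier SLC2A8 by 0.30. The urate carrier SLC2A9 fell by 0.32 on the log2 scale.

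Amino acid carriers form a class of 25 that by family number also holds the carriers of creatine, taurine and neurotransmitters. Of these, 5 were higher (20%) and 2 lower (8%), against 11.5% and 13% of all genes. The heavy chain SLC3A2 had 569, 579 and 665 CPM in treated libraries, against 446, 450 and 336 CPM in untreated ones (0.56 ± 0.10, SE; edgeR adjusted p = 0.00107). Its light chain SLC7A5 had 1908, 1778 and 2152 CPM treated, against 1606, 1688 and 826 CPM untreated. The untreated value of replicate 3 was far below the others. The log2 fold change of 0.50 ± 0.30 (SE) did not pass (edgeR adjusted p = 0.256), and without that library it was 0.25 and did not pass either (edgeR adjusted p = 0.547). Another light chain, SLC7A6, averaged 135 and 132 CPM and did not pass either. The light chain of the cystine and glutamate exchanger, SLC7A11, had 35.7, 38.4 and 39.1 CPM treated, against 51.3, 48.8 and 76.2 CPM untreated. It fell with a log2 fold change of -0.64 ± 0.15 (SE; edgeR adjusted p = 0.00722). SLC7A8, a light chain near the limit of inclusion, had at most 2.16 CPM in any wild type library. The heavy chain thus rose, the light chain SLC7A11 fell, and SLC7A5, SLC7A6 and SLC7A8 were not called. The neutral amino acid exchanger SLC1A4 had 38.9, 33.1 and 37.1 CPM treated, against 24.8, 24.6 and 21.4 CPM untreated (0.63 ± 0.11, SE; edgeR adjusted p = 0.000673). SLC38A10 rose by 0.46, the glutamine carrier SLC1A5 by 0.33 and the lysosomal carrier SLC36A1 by 0.26 on the log2 scale. The call of SLC1A5 was lost when any treated wild type library was left out (edgeR adjusted p 0.0652 to 0.0768). SLC38A9, the lysosomal arginine carrier that signals to mTORC1, fell by 0.36.

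**Figure D3:**
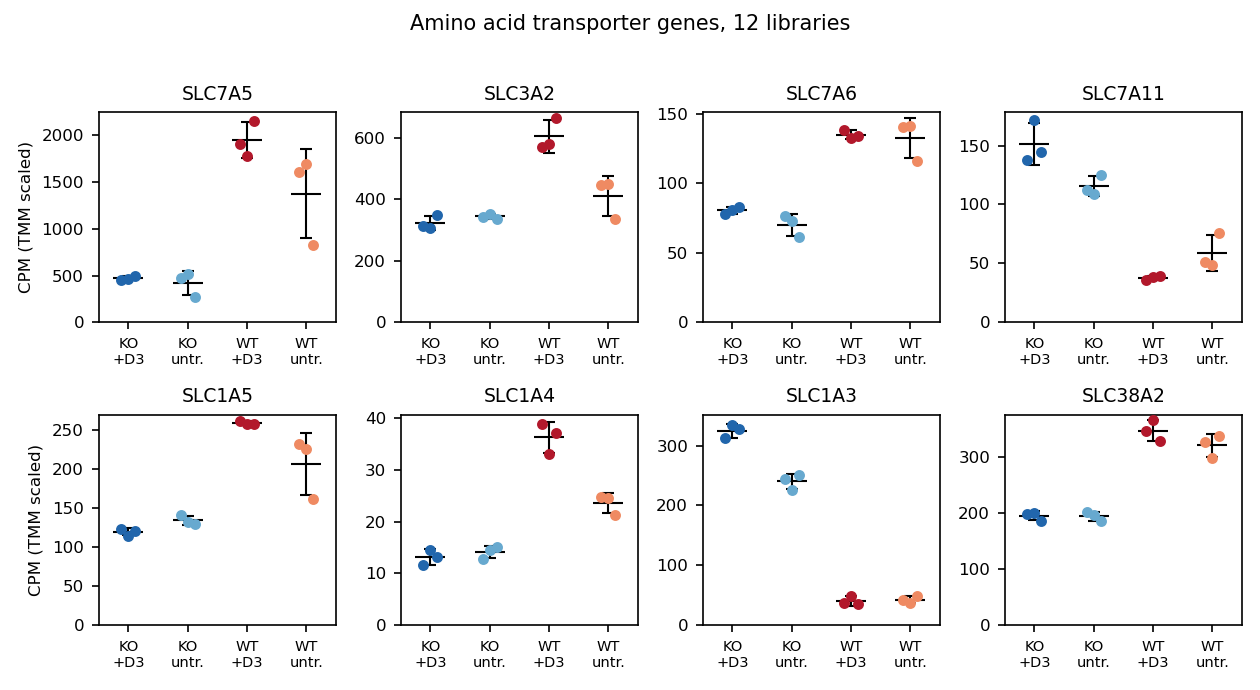
CPM, scaled by TMM, of 8 amino acid carrier genes in each library. Points are libraries, bars and whiskers the mean ± 1 SD (n = 3). SLC7A5 ran from 270 to 514 CPM in knockout and from 826 to 2152 CPM in wild type cells, and SLC1A3 and SLC7A11 were higher in all 6 knockout libraries than in any wild type library.

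Metal carriers split by direction. Of 24, 6 rose (25%) and 4 fell (16.7%), against 11.5% and 13% of all genes. SLC30A1, which exports zinc from the cell, had 15.5, 12.6 and 13.7 CPM in treated libraries, against 9.66, 8.68 and 6.76 CPM in untreated ones. The ranges did not touch, and the log2 fold change was 0.74 ± 0.15 (SE; edgeR adjusted p = 0.0024). SLC39A7, which releases zinc from the endoplasmic reticulum, had 22.5, 26.2 and 27.3 CPM treated, against 17.4, 16.5 and 16.1 CPM untreated (0.60 ± 0.10, SE; edgeR adjusted p = 0.000503). The family 39 zinc carriers SLC39A6, SLC39A1 and SLC39A13 and the secretory pathway carrier SLC30A5 rose by 0.24 to 0.48. SLC39A8, an importer of zinc and manganese, had 1.42, 1.72 and 1.88 CPM treated, against 2.07, 3.11 and 3.30 CPM untreated, and fell by 0.75 on the log2 scale (edgeR adjusted p = 0.0135). SLC30A6, a subunit of a Golgi zinc carrier, had 39.4, 38.6 and 23.96 CPM treated, against 54.4, 47.4 and 66.1 CPM untreated, and fell by 0.72 (edgeR adjusted p = 0.0221). Without untreated replicate 3 the edgeR adjusted p was 0.0732 for SLC39A8 and 0.112 for SLC30A6. The call of SLC39A8 was also lost without treated replicate 1 (edgeR adjusted p = 0.0622) and with the compared groups alone (edgeR adjusted p = 0.0658). That of SLC30A6 was also lost without untreated replicate 1 (edgeR adjusted p = 0.0501) and with a replicate block (edgeR adjusted p = 0.0526). SLC30A7 and SLC39A11 fell by 0.28 and 0.24.

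Mitochondrial carriers, the largest class with 38 members, had 6 higher (15.8%) and 7 lower (18.4%), against 11.5% and 13% of all genes. The aspartate and glutamate carriers SLC25A12 and SLC25A13, which serve the malate and aspartate shuttle, both fell. SLC25A12 had 87.8, 79.5 and 77.6 CPM in treated libraries, against 111, 103 and 136 CPM in untreated ones (-0.51 ± 0.09, SE; edgeR adjusted p = 0.00103). SLC25A13 had 99.3, 88.8 and 88.8 CPM treated, against 117, 117 and 148 CPM untreated (-0.46 ± 0.09, SE; edgeR adjusted p = 0.00152). Neither gene's groups overlapped. The S-adenosylmethionine carrier SLC25A26, the folate carrier SLC25A32, SLC25A43, the ATP-Mg and phosphate carrier SLC25A24 and the ADP/ATP carrier SLC25A5 fell by 0.32 to 0.43. The call of SLC25A32 was lost without treated replicate 1 (edgeR adjusted p = 0.0519) and without treated replicate 3 (edgeR adjusted p = 0.0508). The uncoupling protein family member SLC25A27 had 12.3, 12.4 and 12.99 CPM treated, against 7.16, 6.49 and 10.3 CPM untreated (0.65 ± 0.16, SE; edgeR adjusted p = 0.00794). The other members that rose were SLC25A35, the citrate carrier SLC25A1, the ADP/ATP carrier SLC25A4, SLC25A44 and the iron carrier SLC25A37, by 0.25 to 0.56.

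The remaining classes held fewer calls. SLC22A23, an orphan of the organic ion family, had the largest rise of all members, with 12.9, 9.91 and 12.02 CPM in treated libraries against 4.40, 7.68 and 5.66 CPM in untreated ones (0.98 ± 0.17, SE; edgeR adjusted p = 0.000673). SLC10A3, an orphan of the bile acid carrier family, had 29.2, 29.2 and 31.5 CPM treated, against 19.7, 18.3 and 12.3 CPM untreated (0.84 ± 0.15, SE; edgeR adjusted p = 0.000754). Neither gene's groups overlapped. The fatty acid carriers SLC27A3 and SLC27A2 rose by 0.53 and 0.33. Of their class of 11, which holds SLC10A3, 3 rose (27.3%) and 0 fell, against 11.5% and 13% of all genes. Among 7 carriers of monocarboxylates and hormones 1 rose (14.3%), SLC16A5, by 0.34. The lactate carriers SLC16A1 and SLC16A3 did not pass, at 38.2 and 44.04 CPM treated against 39.1 and 37.1 CPM untreated, while BSG, their chaperone, had 328, 341 and 359 CPM treated against 256, 238 and 128 CPM untreated (0.73 ± 0.23, SE; edgeR adjusted p = 0.0489). Among 4 nucleoside carriers SLC29A2 rose by 0.27 and SLC29A3 fell by 0.31 (25% each). The call of SLC29A2 was lost without treated replicate 1 (edgeR adjusted p = 0.0681) and without treated replicate 3 (edgeR adjusted p = 0.0762). SLC33A1, which moves acetyl-CoA into the endoplasmic reticulum, rose by 0.25 with an edgeR adjusted p of 0.0452, a call lost when any of 5 single wild type libraries was left out (edgeR adjusted p up to 0.155) and under 4 other alternatives.

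Promoters were read for the members held in the RefSeq promoter set used here, to show what stood in front of genes that moved with the hormone. Windows were the 250 bases before the RefSeq start on GRCh38.p14, found for 136 of the 170 symbols, and both strands were searched. The 34 symbols without a window include SLC37A2, SLC26A11, SLC52A2 and SLC7A11, so the counts below do not cover these genes. The vitamin D response element of the DR3 type (a pair of hexamers with a spacer) was found in 0 of the 136 windows and in 0.0659% of 27305 promoters of all genes. The metal response core TGCGCNC stood in 26 of 136 (19.1%), against 16.9% of all promoters, and the antioxidant response core written TGAC, NNN, GC in 18 of 136 (13.2%), against 11%. The antioxidant core occurred in 8 of 34 windows of members that rose, 3 of 17 of members that fell and 7 of 85 of members not called. The metal core occurred in 4, 1 and 21 of the same sets of windows. The amino acid response core written TGATG, N, AA stood in 4 of 136 (2.94%), against 3.19%, in 0, 1 and 3 of those sets. A match describes letters only. The windows of a zinc exporter and a heavy chain that rose, each with a match to the antioxidant core in capitals, and of the exchanger that fell most, with a match to the amino acid core in capitals, are shown 5′ to 3′ on the strand of the gene.
SLC30A1, chr1:211579162-211579411, minus strand: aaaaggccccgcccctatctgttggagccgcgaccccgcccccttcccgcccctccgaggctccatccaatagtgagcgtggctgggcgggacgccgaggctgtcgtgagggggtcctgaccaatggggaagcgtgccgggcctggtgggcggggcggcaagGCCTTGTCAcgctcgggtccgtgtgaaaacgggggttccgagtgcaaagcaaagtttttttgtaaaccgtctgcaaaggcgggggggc
SLC3A2, chr11:62881449-62881698, plus strand: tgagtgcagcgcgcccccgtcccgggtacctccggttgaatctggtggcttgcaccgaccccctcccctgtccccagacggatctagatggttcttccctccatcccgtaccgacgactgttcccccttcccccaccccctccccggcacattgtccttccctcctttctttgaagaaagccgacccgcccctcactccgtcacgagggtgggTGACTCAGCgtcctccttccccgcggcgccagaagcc
SLC9A9, chr3:143848469-143848718, minus strand: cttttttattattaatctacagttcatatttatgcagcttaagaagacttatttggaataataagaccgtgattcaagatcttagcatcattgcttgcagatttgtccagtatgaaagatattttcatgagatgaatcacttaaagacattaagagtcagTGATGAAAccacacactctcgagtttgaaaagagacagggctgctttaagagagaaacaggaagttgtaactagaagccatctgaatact
The match of SLC30A1 lies on the other strand, 88 to 80 bases before the start, and that of SLC3A2 lies 37 to 29 bases before it and includes TGACTCA, a motif also bound by AP-1 factors. The match of SLC9A9 lies 90 to 83 bases before the start. The RefSeq starts used here are not those of GENCODE v29. The SLC3A2 window lies inside the span that GENCODE gives the gene, the SLC9A9 window lies partly inside it, and the SLC30A1 window lies wholly before it.

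In knockout cells 1 of 171 members (0.585%) was called higher with hormone and 0 lower. Over all genes 0.913% were higher and 1.64% lower in treated than in untreated knockout cells, 2.55% together, and the median log2 fold change was -0.03 for the members and -0.004 for all genes. At an unadjusted p below 0.05 the same edgeR test gave 20 members higher (11.7%) and 11 lower (6.43%), against 9.96% and 11.4% of all genes. DESeq2 called 4 members higher and 4 lower, and 399 and 508 of all genes. The gene called was SLC1A3, a glutamate and aspartate importer. It had 312, 334 and 328 CPM in treated knockout libraries, against 244, 226 and 250 CPM in untreated ones, and the groups did not overlap. The log2 fold change was 0.43 ± 0.11 (SE; edgeR adjusted p = 0.046). Leaving out any of the 6 knockout libraries lost the call (edgeR adjusted p 0.0823 to 0.198). The mitochondrial phosphate carrier SLC25A3 (log2 fold change -0.41) and SLC4A11 (-0.31) lay just above the threshold, each with an edgeR adjusted p of 0.05001.

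The genotypes answered the hormone differently at 65 members. The knockout response minus the wild type response was above 0 for 26 of 171 (15.2%) and below 0 for 39 (22.8%), where over all genes the shares were 13.8% and 12.5%. Without untreated wild type replicate 3 these counts were 20 and 41, and the count above 0 was 16 without treated wild type replicate 3 or untreated knockout replicate 1 and 17 without treated knockout replicate 2. Of the 42 members that rose in wild type cells, 37 had a log2 fold change below 0 in knockout cells, with a median of -0.12, and the difference was called for 36. These shares were 88.1% and 85.7% of the members that rose, and 82.4% and 76.7% of all 1688 genes that rose. Of the 19 that fell in wild type cells, 17 had one above 0 in knockout cells, with a median of 0.18, and the difference was called for 16. These were 89.5% and 84.2% of the members that fell, and 78.1% and 78.6% of all 1914 genes that fell. The genes were chosen by the wild type response, which is a term of the difference, so these shares are a description. The largest difference below 0 was that of SLC30A1, with a log2 fold change of -0.38 in knockout and 0.74 in wild type cells (difference -1.12 ± 0.23, SE; edgeR adjusted p = 0.00261). The largest above 0 was that of SLC30A6, at 0.50 in knockout and -0.72 in wild type cells (difference 1.22 ± 0.27, SE; edgeR adjusted p = 0.00823). Neither knockout fold change passed its own test (edgeR adjusted p = 0.235 for SLC30A1 and 0.16 for SLC30A6).

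**Figure D4:**
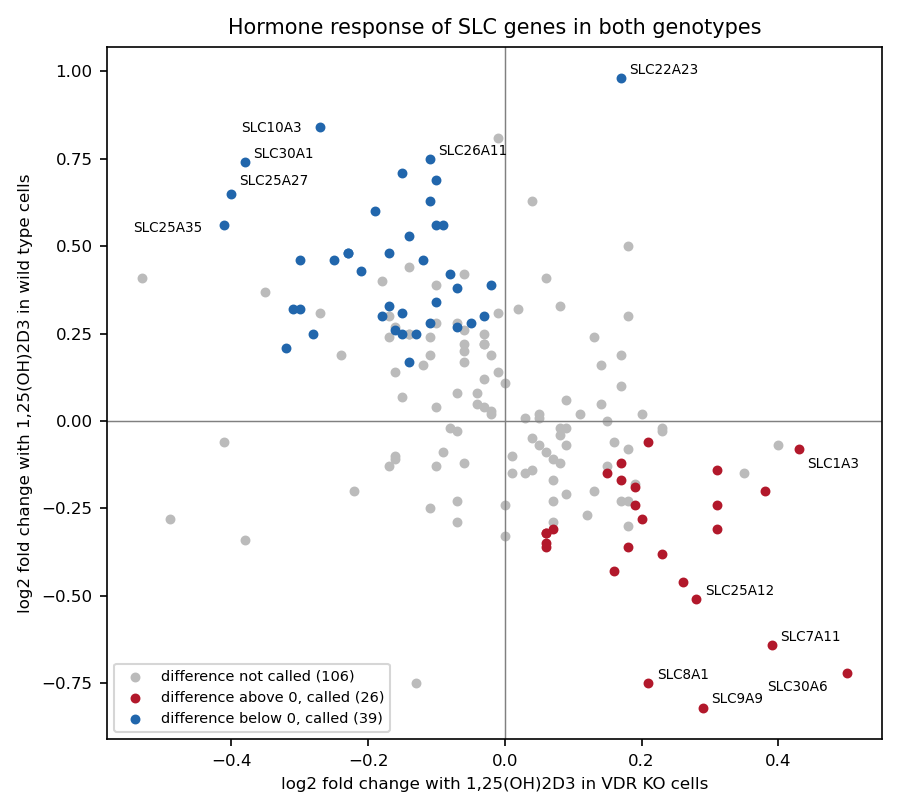
Log2 fold change with 1,25(OH)2D3 of each of the 171 members in knockout cells (horizontal) and in wild type cells (vertical). Colour marks members whose 2 responses differed at an adjusted p below 0.05, 26 above 0 and 39 below 0. The horizontal spread, -0.53 to 0.50, is narrower than the vertical, -0.82 to 0.98.

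Without hormone, knockout cells differed from wild type cells at most members, as at most genes. In untreated knockout cells 57 of 171 members (33.3%) were higher and 71 (41.5%) lower than in untreated wild type cells, where 35.5% of all genes were higher and 34.2% lower, 69.7% together. With hormone 52 (30.4%) were higher and 85 (49.7%) lower, where the shares over all genes were 38.4% and 37.4%. The members' median log2 fold change was -0.10 untreated and -0.22 treated, against 0.01 and 0.024 over all genes. Without untreated wild type replicate 3 the untreated counts were 59 higher and 73 lower. Scaling by library size alone moved the median of all genes to 0.134 untreated and 0.131 treated, and the members then counted 65 higher and 64 lower untreated, and 58 and 77 treated. The lower summed level of keratinocyte markers in all knockout libraries moved with each of these differences, and its part in them was not tested. The markers were not lower throughout. Untreated, DSG3 was higher in knockout cells, at 129.6 CPM against 62.72 CPM. KRT16 and PERP did not pass (edgeR adjusted p = 0.096 and 0.198), and the other markers were lower.

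Amino acid carriers were mostly lower in the knockout. Untreated, 16 of 25 were lower (64%) and 4 higher (16%), against 34.2% and 35.5% of all genes. The class median was -0.39, or -0.26 with library size alone as the scaling. Treated, 15 were lower (60%) and 6 higher (24%), against 37.4% and 38.4% of all genes. SLC7A5 had 469, 514 and 270 CPM in untreated knockout cells, against 1606, 1688 and 826 CPM in untreated wild type cells. Replicate 3 was the lowest in both groups, and still the groups did not overlap (-1.72 ± 0.30, SE; edgeR adjusted p = 0.000836). The glutamine carrier SLC38A5 had 40.1, 44.8 and 40.4 CPM untreated in the knockout, against 116, 117 and 91.6 CPM in wild type cells (-1.37 ± 0.09, SE; edgeR adjusted p = 1.45e-09). SLC38A2, SLC7A6, SLC1A4, SLC1A5 and the creatine carrier SLC6A8 were lower by 0.62 to 1.46 on the log2 scale. SLC3A2 was lower by only 0.26 (edgeR adjusted p = 0.0337), a call lost under 9 of 14 alternatives. It did not pass with library size alone as the scaling (edgeR adjusted p = 0.248) or with a replicate block (edgeR adjusted p = 0.054). Leaving out single libraries also lost it (edgeR adjusted p 0.0548 to 0.152). Against these, SLC1A3 had 244, 226 and 250 CPM in untreated knockout cells, against 42.2, 36.8 and 47.8 CPM in untreated wild type cells, a log2 fold change of 2.51 ± 0.12 (SE; edgeR adjusted p = 4.17e-11). SLC7A11 had 112, 109 and 125 CPM, against 51.3, 48.8 and 76.2 CPM (0.97 ± 0.14, SE; edgeR adjusted p = 3.77e-05). With hormone the same differences were 3.02 for SLC1A3 and 2.00 for SLC7A11.

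**Figure D5:**
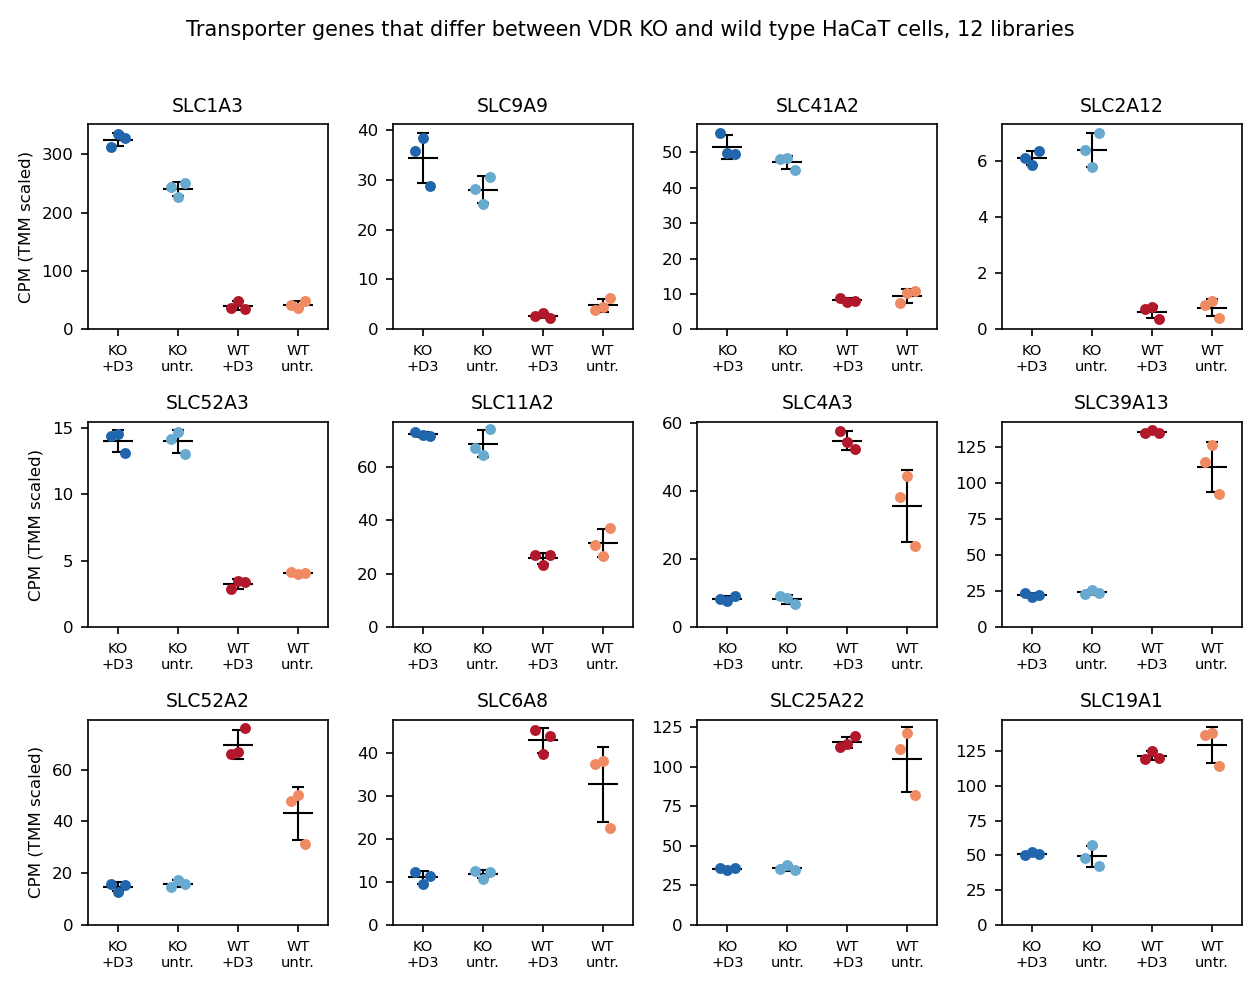
CPM, scaled by TMM, of 12 members that differed between knockout and wild type cells. Points are libraries, bars and whiskers the mean ± 1 SD (n = 3), panels start at 0. The first 6 panels show genes higher and the last 6 genes lower in knockout cells, and in each panel all 6 knockout libraries lay on the same side of all 6 wild type libraries.

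Metal carriers went both ways. Untreated, 8 of 24 were higher (33.3%) and 9 lower (37.5%), near the 35.5% and 34.2% of all genes. Treated, 9 were higher (37.5%) and 13 lower (54.2%), against 38.4% and 37.4% of all genes. The magnesium carrier SLC41A2 had 48.1, 48.3 and 44.9 CPM in untreated knockout cells, against 7.33, 10.2 and 10.9 CPM in untreated wild type cells (2.31 ± 0.12, SE; edgeR adjusted p = 7.41e-11). The iron importer SLC11A2 had 67.3, 64.6 and 74.4 CPM, against 30.9, 26.5 and 37.1 CPM (1.13 ± 0.10, SE; edgeR adjusted p = 4.62e-08). SLC39A8 and the vesicular zinc carrier SLC30A4 were also higher, by 1.76 and 1.46. The zinc carrier SLC39A13 was the member with the largest fall, with 22.8, 25.9 and 24.1 CPM untreated in the knockout against 115, 127 and 92.8 CPM in wild type cells (-2.20 ± 0.10, SE; edgeR adjusted p = 2.09e-11). The zinc importer SLC39A4 had 2.58, 3.68 and 3.42 CPM, against 10.1, 12.8 and 10.6 CPM, and was lower by 1.79. SLC30A1, which the hormone raised in wild type cells, was lower by 0.92 untreated, with 5.09, 4.43 and 3.78 CPM in knockout cells. With hormone in both genotypes it had 3.47, 2.96 and 3.80 CPM in knockout cells, against 15.5, 12.6 and 13.7 CPM in wild type cells, and the log2 fold change was -2.03 ± 0.17 (SE; edgeR adjusted p = 8.39e-09).

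Every one of the 5 called carriers of nucleotide sugars and acetyl-CoA was higher in the knockout, of 6 in the class (83.3%), with hormone and without. Over all genes 38.4% were higher with hormone and 35.5% without. The class median was 0.90 untreated and 0.69 treated. SLC33A1 averaged 47.6 ± 1.63 CPM in untreated knockout and 23.9 ± 2.10 CPM in untreated wild type cells (SD, n = 3 each), and the CMP-sialic acid carrier SLC35A1 averaged 47.1 ± 0.498 and 24.01 ± 1.64 CPM. SLC35A5, SLC35A4 and the UDP-N-acetylglucosamine carrier SLC35A3 were higher by 1.08, 0.83 and 0.23. The UDP-galactose carrier SLC35A2 did not differ beyond its spread, at 25.97 ± 1.81 and 27.7 ± 0.539 CPM (edgeR adjusted p = 0.365).

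In the other classes single genes stood far out. The glucose carrier SLC2A12 had 6.38, 5.78 and 6.96 CPM in untreated knockout cells, against 0.862, 1.00 and 0.423 CPM in untreated wild type cells, the largest log2 fold change of the members at 3.06 ± 0.25 (SE; edgeR adjusted p = 1.37e-08). These wild type values lay below the limit of 2 CPM. The gene's mean of 3.57 CPM met the member rule through the knockout libraries, where it is high. SLC9A9 had 28.1, 25.2 and 30.6 CPM, against 3.88, 4.39 and 6.34 CPM (2.52 ± 0.17, SE; edgeR adjusted p = 1.67e-09), and with hormone the difference was 3.63. The inositol carrier SLC2A13 was higher by 1.36. SLC4A3 had 9.21, 8.48 and 6.72 CPM, against 38.2, 44.3 and 23.8 CPM (-2.12 ± 0.19, SE; edgeR adjusted p = 3.74e-07). The riboflavin carriers moved apart: SLC52A3 had 14.2, 14.7 and 13.03 CPM in untreated knockout cells against 4.14, 4.02 and 4.06 CPM in wild type cells, a log2 fold change of 1.77, and SLC52A2 had 14.6, 17.3 and 15.8 CPM against 47.7, 50.3 and 31.4 CPM, a log2 fold change of -1.44. The reduced folate carrier SLC19A1 was lower by 1.39 and the mitochondrial glutamate carrier SLC25A22 by 1.54. Of 11 carriers of fatty acids, choline and bile acids 8 were lower (72.7%) and 2 higher (18.2%) untreated, against 34.2% and 35.5% of all genes. The fatty acid carrier SLC27A4, with the smallest adjusted p of the class, had 31.8 ± 2.18 CPM in the knockout and 69.4 ± 1.86 CPM in wild type cells (SD, n = 3 each). The lactate carriers differed in direction, SLC16A1 higher by 0.77 and SLC16A3 lower by 0.72, and their chaperone BSG was lower by 0.96 on the log2 scale.

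Members called in different directions differed in gene length and base composition. In wild type cells the members higher with hormone had a median span of 18.2 kb and a GC content of 56.7%, and those lower a span of 130 kb and 45%. Over all genes the medians were 15.8 kb and 55.7% for genes higher, and 59.5 kb and 46% for genes lower. Members higher in untreated knockout cells had medians of 52.4 kb and 44.5%, and those lower 32.8 kb and 57.2%, where over all genes the medians were 33.1 kb and 46.1% for genes higher and 25.3 kb and 55.5% for genes lower. Their part in the fold changes was not tested. Other counted genes overlap 71 members, 59 of them on the other strand, and the sources used here do not say whether the counts use strand. Of the members named here, SLC1A5, SLC2A12, SLC4A2, SLC5A6, SLC6A8, SLC7A6, SLC12A9, SLC16A1, SLC16A3, SLC19A1, SLC20A2, SLC22A23, SLC24A6, SLC25A5, SLC25A11, SLC25A12, SLC25A24, SLC25A32, SLC25A35, SLC26A11, SLC27A2, SLC27A6, SLC29A2, SLC30A4, SLC35A3, SLC35A4, SLC35A5, SLC37A4, SLC39A1, SLC39A7, SLC39A13, SLC46A1 and SLC52A2 overlap a gene on the other strand. SLC25A3, SLC25A10, SLC25A43, SLC27A3, SLC27A4, SLC35A1, SLC39A8 and SLC43A3 overlap a gene ID on the same strand.

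The deposited term tables listed members as well. In the authors' deposited table for genes higher in treated than in untreated wild type cells, anion transmembrane transporter activity held 27 of 862 genes (its adjusted p was 0.0172), of which 16 were members. All 6 genes of anion:anion antiporter activity in the authors' deposited table (its adjusted p was 0.0187) were members, SLC26A11, SLC37A2, SLC37A4, SLC4A11, SLC4A2 and SLC4A3. For genes lower in untreated knockout cells, the authors' deposited table gave 76 of 3423 genes for anion transmembrane transporter activity, 41 of them members (its adjusted p was 0.012). With hormone the authors' deposited table gave 35 of 4456 genes for drug transmembrane transporter activity, 27 of them members (its adjusted p was 0.0353). SLC4A2 is thus among the raised genes of the authors' deposited table, and was not called by the test here.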

How the data were processed

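The authors deposited unnormalized counts for every gene in each of 12 libraries, under human Ensembl identifiers with symbols, and a second table in CPM. Each deposited CPM matches the count over its column total to within 0.005. The deposited term tables hold an adjusted p-value and a gene number per term (other values), per the file headers, and 4 were used, with the direction of each settled by matching its genes to the fold changes. BWA 0.5.9 and mm9 are named per the submitters' processing notes. Since mm9 is of the mouse and the identifiers are human, build, annotation and counter are taken as not given in the sources used here. Some genes are not reported here.

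The test was run with edgeR 4.0.16 (R 4.3.3): TMM scaling (factors 0.95 to 1.057), the filterByExpr filter (14676 genes kept, 1595 set aside, every member kept) and the robust quasi-likelihood test on all 12 libraries with 4 groups. P-values were adjusted by Benjamini-Hochberg over all genes within each of 5 comparisons, and an adjusted p below 0.05 was called. CPM of single genes were scaled by TMM, the limit of 2 CPM was applied to the deposited CPM. Values after ± beside CPM are standard deviations, beside log2 fold changes approximate standard errors (the fold change divided by the root of the F statistic). Gene spans and exon lengths come from GENCODE v29 on GRCh38, which held 170 members, promoters from RefSeq. The script was tested on data simulated with 1 common spread for all genes. It recovered 54% of 1.5-fold and 91% of 2-fold changes, so a gene not called may still have changed.

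The members, classes and other lists were chosen with earlier results of these data known. Genes were named by rule: the 10 members that rose most and the 10 that fell most in each comparison among those called whose groups do not overlap, 5 each way for the difference, the 10 highest levels, the highest level and smallest adjusted p in each class, carrier partners, calcium and phosphate carriers, and the 2 genes with the smallest adjusted p of each other list. Some members named beside these were chosen after their values were seen. Alternatives were 2 other scalings, 2 other filters, the compared groups alone, a replicate block, DESeq2 1.42.0, limma 3.58.1 on log2(CPM + 1), other level limits and leaving out each library. The remaining 8 deposited term tables were not used.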

Additional observations from a re-analysis of the deposited data

Results flagged for a closer look

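The responses of knockout and wild type cells to the hormone differed, by the interaction test in edgeR, for 65 members. The 20 given next are those of the 65 that are also among the largest changes in either genotype or the largest differences. The smallest adjusted p of the 65 was that of SLC37A2 (difference -0.66, edgeR adjusted p = 0.00045), which is not among the 20. SLC4A11 (-0.64, edgeR adjusted p = 0.000859) and SLC38A10 (-0.58, edgeR adjusted p = 0.00109) are not among them either. Of the 20, SLC25A12 had an edgeR adjusted p of 0.000541, SLC39A7 of 0.000743 and SLC25A13 of 0.00076. The response in knockout cells minus that in wild type cells was below 0 on the log2 scale for the zinc exporter SLC30A1 (-1.12), SLC10A3 (-1.11), SLC25A27 (-1.05), SLC25A35 (-0.97), SLC26A11 (-0.87), the folate carrier SLC46A1 (-0.86), SLC22A23 (-0.80), SLC39A7 (-0.79), the riboflavin carrier SLC52A2 (-0.79) and SLC1A4 (-0.73). It was above 0 for SLC30A6 (1.22), SLC9A9 (1.11), the cystine exchanger SLC7A11 (1.03), the calcium exchanger SLC8A1 (0.97), the aspartate and glutamate carriers SLC25A12 (0.80) and SLC25A13 (0.72), SLC25A26 (0.60), SLC25A32 (0.60), SLC1A3 (0.51) and SLC25A43 (0.42). SLC1A3 is the member of these whose response was called in knockout cells. The difference of SLC1A3 missed the threshold when any of 6 libraries was left out (edgeR adjusted p 0.0519 to 0.0881), and that of SLC8A1 without treated wild type replicate 1 (edgeR adjusted p = 0.0505) or untreated knockout replicate 1 (edgeR adjusted p = 0.0512). No explanation was tested.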

How the results depend on the processing

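The counts of members called stayed within 1.5 times of the reported values under the alternatives tried, except for those that follow. In wild type cells the 19 members lower with hormone became 12 with the compared groups alone, and 10 to 19 when single libraries were left out. In knockout cells the single member higher became 2 with DESeq2 size factors, 2 with a filter of at least 5 CPM in 3 libraries, 9 with the compared groups alone, 4 with DESeq2 and 0 with limma, and 0 whichever library was left out. The 0 members lower there became 4 with library size alone, 2 without a filter, 2 with the filter of at least 5 CPM, 9 with the compared groups alone, 4 with DESeq2 and 1 with limma. The 26 members whose response difference was above 0 became 16 to 26 with single libraries left out. The cause was not tested. No gene tracked through the alternatives reversed a called sign. Replicate numbers did not pair the samples: same-numbered libraries had correlations of deviations of -0.175 to 0.121. With a replicate block 41 members were higher and 19 lower in treated wild type cells, 0 and 0 in treated knockout cells, 56 and 69 in untreated knockout against wild type cells, 51 and 85 in treated ones, and 22 and 35 in the difference of responses. Members near 2 CPM rest on few reads per library, and their folds are the least precise.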

Other observations

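Genes that work beside the carriers were counted from lists chosen with earlier results known. Over all genes tested 11.5% rose and 13% fell with hormone in wild type cells, and 0.913% and 1.64% in knockout cells. Without hormone 35.5% of all genes were higher and 34.2% lower in knockout cells. Several shares of the lists lie near these. ABC transporters, the pumps driven directly by ATP, had 3 of 19 higher (15.8%) and 2 lower (10.5%) with hormone in wild type cells. The drug efflux pump ABCB1 had 3.08, 2.58 and 2.33 CPM in treated wild type libraries, against 0.690, 0.731 and 1.10 CPM in untreated ones, a log2 fold change of 1.64 ± 0.28 (SE; edgeR adjusted p = 0.000595). This is larger than that of any member, but the ABC list had no limit of 2 CPM. The untreated levels of ABCB1 rest on few reads. The peroxisomal pump ABCD3 fell by 0.34. In untreated knockout against untreated wild type cells 10 ABC genes were higher (52.6%) and 6 lower (31.6%). Among them were ABCG2 at 1.51 and ABCC3 at -1.64 on the log2 scale. Of 18 genes of zinc, copper and iron handling 3 rose and 3 fell in wild type cells (16.7% each). In knockout cells 0 rose and 4 fell (22.2%). The ferritin heavy chain FTH1, which stores iron, had 534, 533 and 528 CPM in treated and 348, 328 and 284 CPM in untreated wild type cells (0.73 ± 0.10, SE; edgeR adjusted p = 0.000138). In the knockout it had 299, 269 and 258 CPM treated against 521, 390 and 458 CPM untreated, and fell by 0.73 (edgeR adjusted p = 0.00307). The metallothionein MT2A fell in both, by 0.42 in wild type and by 0.41 in knockout cells, and MT1X and MT1E fell by 0.78 and 0.54 in knockout cells. Without hormone 10 of the list were higher (55.6%) and 4 lower (22.2%) in knockout cells, with STEAP3 at -1.21 and ATP7A at 0.95.

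The shares of all genes given beside the lists above hold for the following lists too. Targets of ATF4, the factor of the amino acid response, had 0 of 20 higher and 3 lower (15%) with hormone in wild type cells. The serine synthesis enzyme PSAT1 had 252, 252 and 258 CPM treated, against 361, 338 and 344 CPM untreated (-0.45 ± 0.07, SE; edgeR adjusted p = 0.000317), and DDIT4 and PHGDH fell by 0.40 and 0.27. In knockout cells ASNS and DDIT4 fell (10%), by 0.51 and 0.60. Untreated knockout cells had 5 of these targets higher (25%) and 12 lower (60%) than untreated wild type cells, among them PSAT1 at -1.23 and CBS at -1.59. Of 22 genes of amino acid sensing by mTORC1, 1 rose (4.55%) and 2 fell (9.09%) in wild type cells (DEPDC5 by 0.45 and RPTOR by 0.31). In knockout cells 1 rose (4.55%), DEPDC5, by 0.33. Without hormone 5 were higher (22.7%) and 11 lower (50%) in the knockout, with EIF4EBP1 at -1.01 and LAMTOR1 at -0.83. Of 14 partners and gradient pumps 3 rose (21.4%) and 2 fell (14.3%) in wild type cells, with ATP1B3 at 0.32 and SGK1 at -0.66. In knockout cells 1 rose (7.14%), STK39, by 0.36. Untreated, 4 were higher and 4 lower in the knockout (28.6% each), with NEDD4L at 1.27 and STK39 at -1.38. Of 16 genes of glutathione and thiol redox 1 rose (6.25%) and 2 fell (12.5%) with hormone in wild type cells, with NQO1 at -0.30. Untreated, 7 were higher (43.8%) and 5 lower (31.2%) in the knockout, with GCLM at 1.13 and TXNRD1 at 1.10. Of 10 calcium and phosphate genes known from vitamin D biology, which include 5 carriers described above, 3 rose (30%) and 1 fell (10%) in wild type cells. The calcium pump ATP2B1 rose by 0.25 and was higher by 0.86 in untreated knockout cells, where 3 were higher (30%) and 4 lower (40%).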
